A study of Homo sapiens with 20 samples.

Results

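Interferon-stimulated genes (ISGs) are genes that cells switch on when they sense an interferon. A list of 39 of them was followed in A549 cells given extracellular ATP (eATP) or TGF-β. Members were matched by gene symbol in a table of 58825 genes, where each symbol had a single row. Of the 39, 35 reached 0.1 FPKM (fragments per kilobase of transcript, scaled to the library's mapped reads) in at least 4 of the 20 libraries, as did 20094 genes of the whole table. The rule used only the level of a gene and no difference between groups. RSAD2, IFI44L, MX2 and XAF1 did not pass, and the list is described below through the 35 that did.

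A549 is an established line from a human lung adenocarcinoma, and the study asked how eATP compares with the cytokine TGF-β as an inducer of epithelial-mesenchymal transition. The 5 groups had 4 libraries each: 10 ng/mL TGF-β for 6 h, 10 ng/mL TGF-β for 2 h, 0.5 mM ATP for 6 h, 0.5 mM ATP for 2 h, and untreated control cells. All groups were grown in DMEM with fetal bovine serum, the labels name no interferon treatment, and the controls carry no collection time, so every treatment was set against the same 4 control libraries. The study's text describes fewer replicates per condition than the libraries used here, and it is not stated if the 4 libraries of each group stem from separate cultures, so p-values measure only the spread among them, possibly a technical one.

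Type I and type III interferons bind receptors that activate the kinases JAK1 and TYK2. These phosphorylate STAT proteins, among them STAT2, which binds IRF9 in the complex ISGF3. ISGF3 binds the interferon-stimulated response element (ISRE) in the promoters of ISGs, whose products sense viral RNA (DDX58, IFIH1), bind or degrade it (IFIT proteins, the OAS enzymes that activate RNase L), block viral particles (MX1, BST2) or modify proteins with ubiquitin-like tags (ISG15, HERC5). Many epithelial cells also transcribe these genes at a low level with no interferon present.

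The level of the members varied widely in A549 cells. In mean FPKM over the 20 libraries, 9 of the 35 were at or above 5 FPKM, 24 at or above 1 FPKM, and 11 below 1 FPKM. PLSCR1, a membrane phospholipid scramblase, was the highest at 16.0 FPKM. It was followed by the RNA-activated synthetase OAS3 at 11.8 FPKM, the antibody receptor TRIM21 at 10.4 FPKM and OAS1 at 10.0 FPKM. The lowest that passed were EPSTI1 at 0.0721 FPKM, which reached 0.1 FPKM in 6 libraries, IFI27 at 0.165 FPKM (16 libraries), OAS2 at 0.196 FPKM (20 libraries), CMPK2 at 0.235 FPKM (18 libraries) and BST2 at 0.244 FPKM (15 libraries). Just outside, RSAD2, the antiviral radical-SAM enzyme viperin, ranged up to 0.09996 FPKM and 40 counts, and IFI44L up to 0.0499 FPKM and 46 counts. MX2 and XAF1 were at or below 49 counts in every library.

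The total count per library was 56187614 to 75050437, with the lowest totals among the TGF-β 6 h libraries (56187614 to 71464725, against 65609263 to 74242362 in controls). The epithelial markers KRT8, KRT18, KRT19, EPCAM and CDH1 were all present, with a summed level of 1107 to 1989 FPKM. Of the markers of cells that could bring ISG transcripts with them, the leukocyte genes PTPRC and CD3E had counts of 0 in 18 and 20 libraries, and the plasmacytoid dendritic genes CLEC4C and LILRA4 had counts of 0 in all 20. The other gene of that list, the cytokine receptor subunit IL3RA, was present at 0.112 to 0.608 FPKM. The summed list was 0.129 to 0.345 FPKM with TGF-β for 6 h and 0.378 to 0.608 FPKM with TGF-β for 2 h, against 0.128 to 0.246 FPKM in controls, and the TGF-β 2 h libraries did not overlap with the controls. The summed leukocyte list was 3.80 to 5.95 FPKM with TGF-β for 6 h, against 6.71 to 8.50 FPKM in controls, carried by CD14, CD68 and ITGAM. The summed fibroblast list was 14.88 to 18.03 FPKM with TGF-β for 6 h and 6.06 to 6.885 FPKM with TGF-β for 2 h, against 1.164 to 1.512 FPKM in controls. It was carried by COL1A1. LUM was also present, at 0.149 to 0.603 FPKM over all libraries, while COL1A2, PDGFRB and DCN stayed below 0.1 FPKM in every library. The part of these lists in the results was not tested. Over all genes, replicate 1 of TGF-β 2 h stood apart from the other libraries. Its deviations from the mean of its group had an SD of 0.738 (log2 CPM), against 0.521 to 0.611 in the other 19. Over the members, the SD was highest in replicates 2 and 1 of TGF-β 6 h, at 0.553 and 0.501, followed by replicate 1 of TGF-β 2 h at 0.486. Calls in comparisons with TGF-β 2 h that are given below with a log2(FC) are also given from a refit without its replicate 1. For the pathway genes this refit was chosen after seeing the data.

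**Figure D1:**
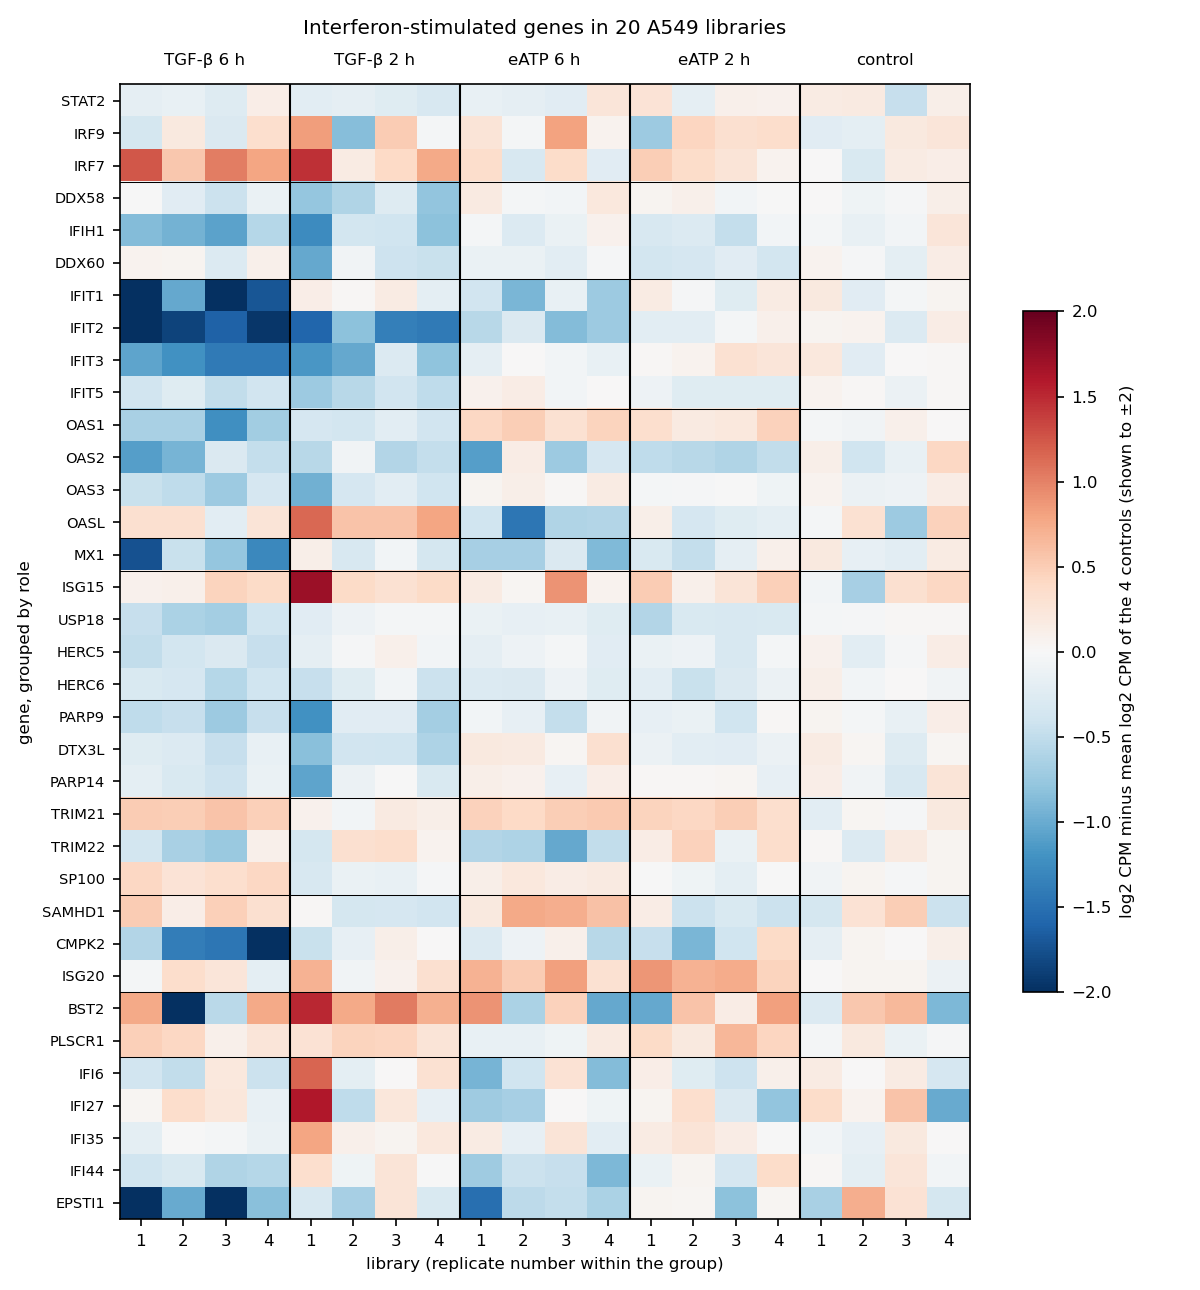
Each cell is the log2 CPM (counts scaled to library size by TMM) of a member in a library minus the mean of the 4 control libraries, with genes grouped by role and the control libraries on the right. IFIT1, IFIT2, IFIT3, MX1 and CMPK2 are lowest on average in the TGF-β 6 h group, with overlap of single libraries with other groups for IFIT3, MX1 and CMPK2. Replicate 1 of TGF-β 2 h differs from its group in ISG15, IFI27 and IFI6.

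TGF-β lowered a large share of the members, and eATP few. A gene was called at an adjusted p under 0.05 (2-sided, edgeR quasi-likelihood test, Benjamini-Hochberg over all 20094 genes). With TGF-β for 6 h, 13 of the 35 members were downregulated and 3 upregulated (7.76% and 8.4% of all genes tested), which is 37.1% and 8.57% of the members. With TGF-β for 2 h, 8 were downregulated and 1 upregulated (5.67% and 7.25% of all genes), which is 22.9% and 2.86% of the members. With eATP for 6 h, 2 were upregulated (1.71% of all genes) and none downregulated (1.28% of all genes) by edgeR. There, 7 members were lower at an unadjusted p under 0.05, the DESeq2 test called 3 lower, and limma called 1 or 2 with a pseudocount of 0.1 or 1 FPKM. The shares of all genes that were lower by these other criteria are not given here, so these counts cannot be read as more than a background. With eATP for 2 h, 3 were upregulated and 1 downregulated (4.79% and 3.79% of all genes), which is 8.57% and 2.86% of the members. The shares lowered by TGF-β were above those of all genes, and the shares raised by TGF-β were near or below them. The list was chosen with earlier results of these data known, so this contrast is a description and not an independent result. The eATP 6 h count was small and moved with single libraries, at 5 and 4 on leaving out replicate 1 or 2 of TGF-β 2 h, and at 1 on leaving out control replicate 1, 2 or 4, eATP 2 h replicate 1, or eATP 6 h replicate 1, 2 or 4. When only the TGF-β 2 h and control libraries were fitted, OAS3, IFIH1, IFIT3, PARP9 and PLSCR1 lost their calls, and DDX58, DTX3L, IFIT2 and IFIT5 kept theirs. In bulk RNA, fewer cells that express a gene and less of its RNA per cell cannot be told apart. No test of the list as a whole was made.

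The median log2(FC) over the 35 members was -0.28 with TGF-β for 6 h, -0.15 with TGF-β for 2 h, -0.09 with eATP for 6 h and -0.07 with eATP for 2 h, against -0.01, 0.02, -0.01 and -0.01 over all genes tested. By library, the median deviation of the members was -0.43 to -0.20 log2 units in the TGF-β 6 h libraries and -0.22 to -0.0043 with TGF-β for 2 h. It was -0.15 to -0.06 with eATP for 6 h and -0.19 to 0.04 with eATP for 2 h, against -0.04 to 0.06 in controls. The 4 libraries of TGF-β 6 h and the 4 of eATP 6 h therefore lay below all 4 control libraries on this measure. The eATP 6 h value depended on the weakly expressed members: over the 24 members at or above 1 FPKM the mean of its 4 library medians was 0.02, and over all 35 it was -0.10, while for TGF-β 6 h these means were -0.26 and -0.32. In the 4 control comparisons, 20 of the 35 members were called at least once, and 15 in none. The matching share of all genes tested was not determined, so these 2 counts have no background to be read against.

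**Figure D2:**
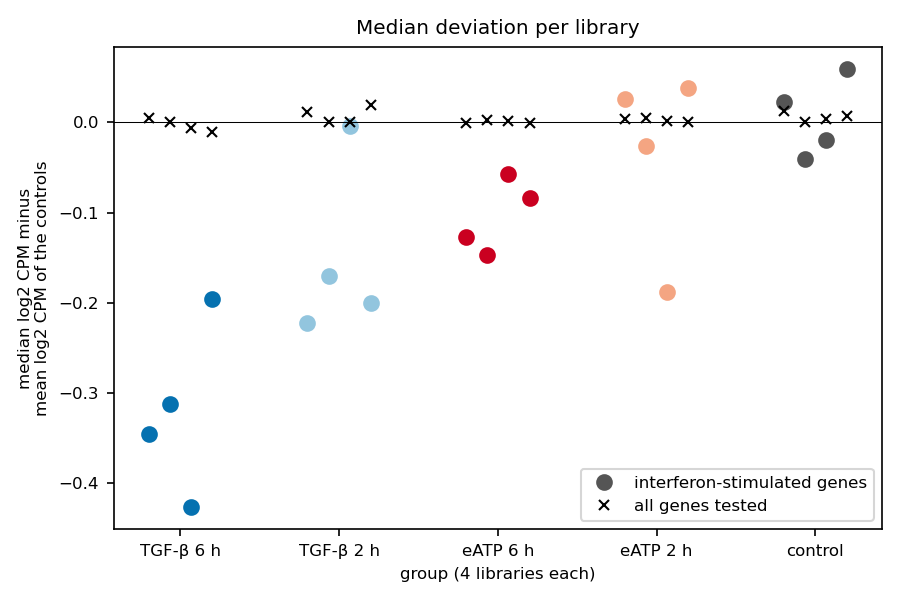
Circles are the median over the 35 interferon-stimulated genes, and crosses the median over all 20094 genes tested, of log2 CPM minus the mean of the controls, for each library. The TGF-β 6 h circles sit at -0.43 to -0.20, below the control circles at -0.04 to 0.06, while the crosses stay near 0 in every library.

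Promoter sequences are shown because the pathway acts through a short DNA element there. RefSeq windows of GRCh38.p14, 250 bases before to 50 bases after an annotated start site, were at hand for 32 of the 39 members (DDX58 under its newer symbol RIGI), in 44 windows. The ISRE core was searched as GAAANNGAAA on both strands (TTTCNNTTTC on the strand shown). It was present for 22 of the 32 members (68.8%), and 13 of them had 2 or more, partly overlapping, in a window. Of all 35116 windows 3.57% held it, and of all 27305 gene symbols 4.38%. The GAS element (TTCNNNGAA, which reads the same on both strands), bound by STAT dimers, was in a window of 10 of the 32 members (31.2%) and of 9.38% of all symbols. Of the members downregulated by TGF-β at 2 or 6 h, 9 of the 13 with a window held an ISRE core, and of the other tested members 11 of 16. A match is a description of the letters and not a bound site. Stretches of 60 bases upstream of the start site follow for 6 members that fell with TGF-β, with the ISRE cores in capitals. They lie at chr10:89392489-89392548 (plus strand), chr10:89327833-89327892 (plus strand), chr10:89414508-89414567 (plus strand), chr12:112938306-112938365 (plus strand), chr2:162318806-162318865 (minus strand) and chr4:88456972-88457031 (plus strand), in the order shown.
IFIT1: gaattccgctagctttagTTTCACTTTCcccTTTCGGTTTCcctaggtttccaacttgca
IFIT3: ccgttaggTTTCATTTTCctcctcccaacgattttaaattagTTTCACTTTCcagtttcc
IFIT5: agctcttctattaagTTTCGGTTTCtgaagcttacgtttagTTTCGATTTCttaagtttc
OAS3: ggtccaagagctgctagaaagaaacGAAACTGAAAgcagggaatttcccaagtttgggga
IFIH1: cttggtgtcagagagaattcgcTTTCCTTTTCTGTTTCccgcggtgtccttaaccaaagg
HERC5: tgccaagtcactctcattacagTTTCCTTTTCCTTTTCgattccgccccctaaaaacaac

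Of members that did not fall with TGF-β, 5 are shown for comparison, with the cores marked in the same way. ISG15 and IFI27 had 2 cores each in the stretch shown, as IFIT1 did. They lie at chr1:1013362-1013421 (plus strand), chr14:94110610-94110669 (plus strand), chr15:88638922-88638981 (plus strand), chr3:146544652-146544711 (minus strand) and chr3:122680779-122680838 (plus strand), in the order shown.
ISG15: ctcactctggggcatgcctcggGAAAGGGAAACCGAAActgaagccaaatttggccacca
IFI27: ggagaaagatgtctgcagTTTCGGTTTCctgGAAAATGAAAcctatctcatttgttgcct
ISG20: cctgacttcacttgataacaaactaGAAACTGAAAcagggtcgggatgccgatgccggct
PLSCR1: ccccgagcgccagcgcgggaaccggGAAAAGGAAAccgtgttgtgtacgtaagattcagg
PARP14: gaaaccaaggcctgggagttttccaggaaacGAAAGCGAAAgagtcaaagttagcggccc

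**Figure D3:**
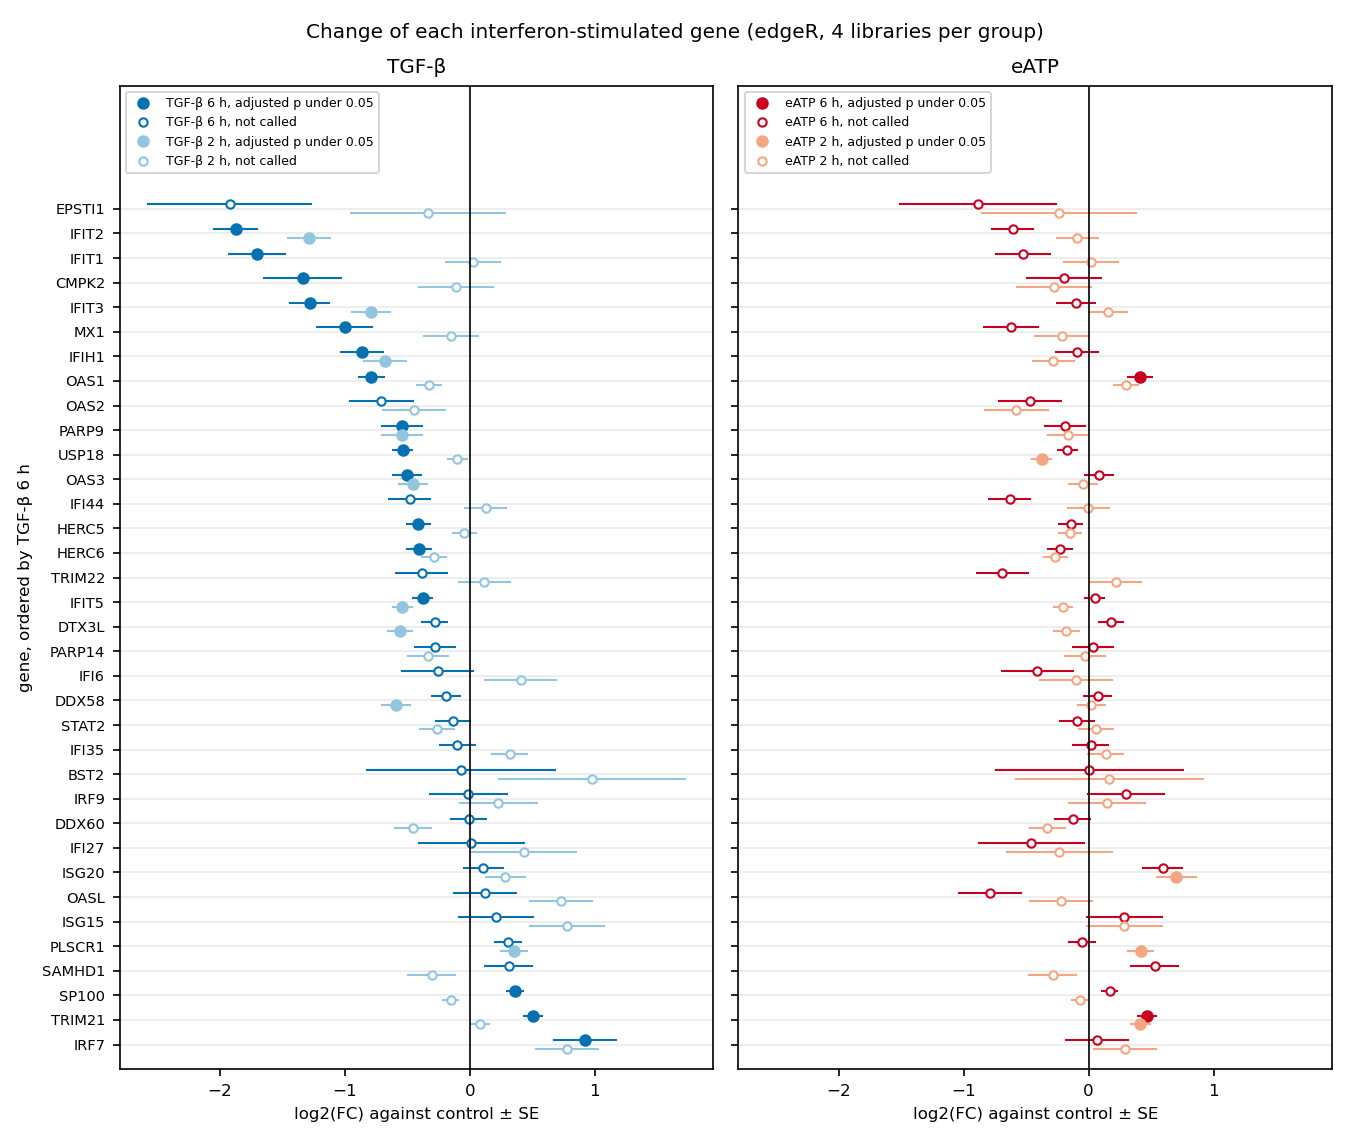
Points are the log2(FC) of each member against the 4 control libraries with its SE, for TGF-β on the left and eATP on the right, with filled points at an adjusted p under 0.05. TGF-β 6 h gives 13 filled points to the left of 0 and 3 to the right, and eATP 6 h gives 2, both to the right.

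The IFIT genes IFIT2 and IFIT1 had the largest decreases among the called members with TGF-β for 6 h. IFIT proteins bind viral RNA that lacks the host cap marks. Their 4 genes lie within 137.3 kb on chromosome 10 (89283694 to 89421001 in GENCODE 29, GRCh38). All 4 were downregulated by TGF-β at 6 h, 3 of 4 at 2 h, and with eATP their log2(FC) lay between -0.61 and 0.16. IFIT1 had 0.534, 1.10, 0.437 and 0.697 FPKM with TGF-β for 6 h and 2.46, 2.42, 2.65 and 2.04 FPKM with TGF-β for 2 h. It had 1.80, 1.25, 2.07 and 1.42 FPKM with eATP for 6 h and 2.64, 2.30, 1.96 and 2.64 FPKM with eATP for 2 h, against 2.74, 2.06, 2.27 and 2.49 FPKM in controls. The TGF-β 6 h libraries lay below every other library, and the TGF-β 2 h libraries overlapped with the controls. IFIT1 was 3.26-fold lower with TGF-β for 6 h, a log2(FC) of -1.71 ± 0.23 (SE, edgeR adjusted p = 2.41e-05). The value at 2 h was 0.03 ± 0.22 (SE, edgeR adjusted p = 0.968).

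IFIT2, the lowest of the family in level, fell at both times. It had 0.220, 0.244, 0.287 and 0.236 FPKM with TGF-β for 6 h and 0.297, 0.547, 0.368 and 0.346 FPKM with TGF-β for 2 h, against 1.01, 1.02, 0.778 and 1.08 FPKM in controls. All 8 TGF-β libraries were below all 4 controls. IFIT2 was 3.67-fold lower at 6 h, a log2(FC) of -1.87 ± 0.18 (SE, edgeR adjusted p = 4.01e-07), and 2.44-fold lower at 2 h, a log2(FC) of -1.29 ± 0.18 (SE, edgeR adjusted p = 5.05e-05). With eATP for 6 h it had 0.649, 0.774, 0.508 and 0.569 FPKM, also below all 4 controls, with a log2(FC) of -0.61 ± 0.17 (SE, edgeR adjusted p = 0.0730) that missed the threshold.

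IFIT3, which stabilizes IFIT1 on RNA, had 1.69, 1.5, 1.31 and 1.33 FPKM with TGF-β for 6 h and 1.56, 1.82, 3.06 and 2.09 FPKM with TGF-β for 2 h, against 4.33, 3.19, 3.67 and 3.79 FPKM in controls. The TGF-β libraries were again all below the controls. The log2(FC) was -1.28 ± 0.16 (SE, edgeR adjusted p = 1.18e-05) at 6 h and -0.79 ± 0.16 (SE, edgeR adjusted p = 0.00236) at 2 h. IFIT5 had 5.17, 5.71, 4.78 and 5.29 FPKM with TGF-β for 6 h and 4.09, 4.86, 5.49 and 4.96 FPKM with TGF-β for 2 h, against 7.58, 7.36, 6.44 and 7.33 FPKM in controls. Its decrease was smaller, at -0.38 ± 0.08 (SE, edgeR adjusted p = 0.00305) for 6 h and -0.54 ± 0.08 (SE, edgeR adjusted p = 0.000154) for 2 h. Without replicate 1 of TGF-β 2 h the 2 h values were -1.19 (edgeR adjusted p = 0.000207) for IFIT2, -0.68 (edgeR adjusted p = 0.00661) for IFIT3 and -0.48 (edgeR adjusted p = 0.000277) for IFIT5. IFIT1, IFIT2 and IFIT3 lie inside the gene LIPA on the opposite strand. LIPA averaged 21.0 FPKM, the libraries were stranded, and the strand setting of the counting was not given in the sources. LIPA itself changed by -0.27 ± 0.09 (SE, edgeR adjusted p = 0.0460) with TGF-β for 6 h.

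**Figure D4:**
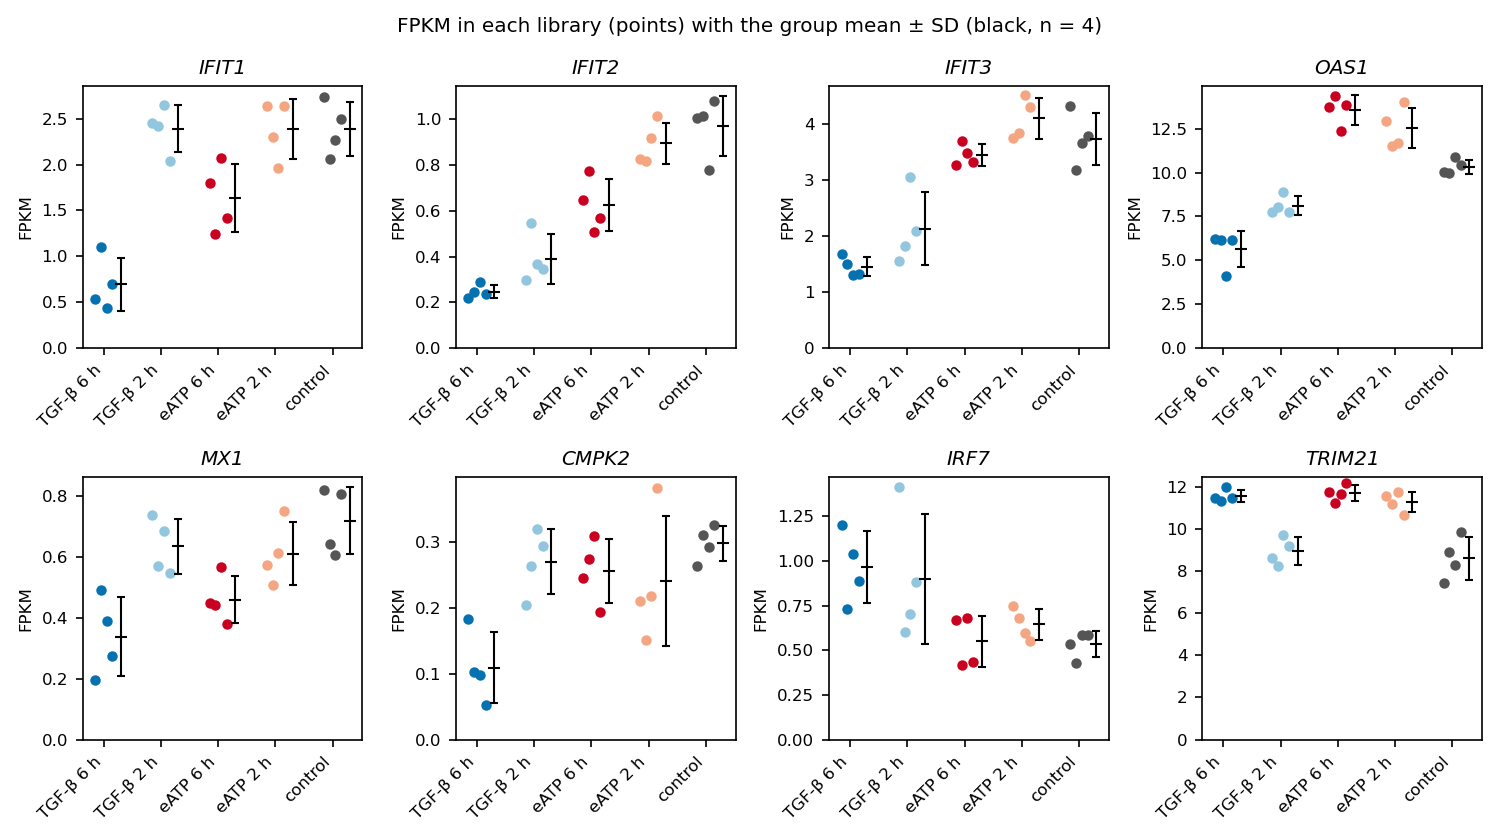
FPKM of 8 members in each library, with the group mean ± SD (n = 4) in black and axes that start at 0. IFIT1, MX1 and CMPK2 have their lowest group mean with TGF-β for 6 h, where single libraries of MX1 and CMPK2 overlap with eATP libraries. IFIT2 and IFIT3 are low at both TGF-β times, OAS1 lies below the controls with TGF-β and above them with eATP, and TRIM21 is low in the TGF-β 2 h and control libraries.

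In the OAS family, OAS1 fell with TGF-β for 6 h and rose with eATP for 6 h. OAS enzymes make the second messenger that activates RNase L, and OAS1, OAS2 and OAS3 lie within 104.9 kb on chromosome 12 (112906777 to 113011723). OAS1 had 6.24, 6.18, 4.13 and 6.13 FPKM with TGF-β for 6 h and 7.74, 8.04, 8.89 and 7.76 FPKM with TGF-β for 2 h. It had 13.7, 14.3, 12.4 and 13.9 FPKM with eATP for 6 h and 13.0, 11.5, 11.7 and 14.0 FPKM with eATP for 2 h, against 10.1, 9.97, 10.9 and 10.4 FPKM in controls. Every TGF-β library was below, and every eATP library above, all 4 controls. The call was lower with TGF-β for 6 h, with a log2(FC) of -0.79 ± 0.11 (SE, edgeR adjusted p = 2.23e-05), and higher with eATP for 6 h, with a log2(FC) of 0.41 ± 0.11 (SE, edgeR adjusted p = 0.0376). The 2 h values missed the threshold, at -0.32 ± 0.11 (SE, edgeR adjusted p = 0.0506) for TGF-β and 0.30 ± 0.11 (SE, edgeR adjusted p = 0.0949) for eATP. The eATP 6 h call was near the threshold. It was lost on leaving out control replicate 1, 2, 3 or 4, eATP 6 h replicate 1, 2 or 4, or eATP 2 h replicate 1, with an adjusted p of up to 0.113 and a log2(FC) of 0.39 to 0.47 throughout. It was also lost with no filter on low values, with limma on log2(FPKM + 0.1) and with the replicate number as a block.

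OAS3, one of the most abundant members, had 9.28, 8.85, 7.61 and 10.2 FPKM with TGF-β for 6 h and 6.51, 10.7, 11.5 and 9.98 FPKM with TGF-β for 2 h, against 14.1, 12.5, 12.3 and 14.95 FPKM in controls. The TGF-β libraries were all below the controls. Its log2(FC) was -0.51 ± 0.12 (SE, edgeR adjusted p = 0.00592) at 6 h and -0.46 ± 0.12 (SE, edgeR adjusted p = 0.0160) at 2 h. Without replicate 1 of TGF-β 2 h, the lowest of all at 6.51 FPKM, the 2 h value was -0.32 (edgeR adjusted p = 0.0162). That call was lost on leaving out control replicate 1 or 4 (adjusted p up to 0.0568 in edgeR). With eATP, OAS3 had 13.9, 14.4, 13.1 and 14.9 FPKM at 6 h and 12.9, 13.0, 13.0 and 12.4 FPKM at 2 h, and both groups overlapped with the controls. OAS2 and OASL, both below 1 FPKM, were not called against controls. OASL had a log2(FC) of 0.73 ± 0.26 (SE, edgeR adjusted p = 0.0704) with TGF-β for 2 h, where all 4 libraries were above the controls.

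Of the RNA sensors, IFIH1 was downregulated by TGF-β at both times and DDX58 at 2 h. IFIH1 (MDA5), which detects long double-stranded RNA, had 0.674, 0.636, 0.580 and 0.847 FPKM with TGF-β for 6 h and 0.515, 1.01, 0.991 and 0.727 FPKM with TGF-β for 2 h, against 1.27, 1.19, 1.24 and 1.56 FPKM in controls. The groups did not overlap. IFIH1 changed on the log2 scale by -0.86 ± 0.18 (SE, edgeR adjusted p = 0.00167) at 6 h and -0.68 ± 0.18 (SE, edgeR adjusted p = 0.0141) at 2 h. At 2 h it was -0.52 (edgeR adjusted p = 0.0324) without replicate 1 of TGF-β 2 h, and the call was lost without control replicate 4 (adjusted p = 0.0540 in edgeR).

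DDX58 (RIG-I), which detects RNA with a free triphosphate end, had 3.69, 3.16, 2.75 and 3.44 FPKM with TGF-β for 6 h and 2.17, 2.59, 3.26 and 2.22 FPKM with TGF-β for 2 h, against 3.94, 3.71, 3.77 and 4.26 FPKM in controls. The TGF-β 2 h libraries were well below the controls and the TGF-β 6 h libraries just below them. The log2(FC) was -0.59 ± 0.12 (SE, edgeR adjusted p = 0.00182) at 2 h and -0.19 ± 0.12 (SE, edgeR adjusted p = 0.333) at 6 h. Without replicate 1 of TGF-β 2 h the 2 h value was -0.53 (edgeR adjusted p = 0.00576). The related helicase DDX60 was not called, with -0.45 ± 0.15 (SE, edgeR adjusted p = 0.0539) at 2 h of TGF-β and -0.01 ± 0.15 (SE, edgeR adjusted p = 0.983) at 6 h. With eATP the 3 sensors had log2(FC) values of -0.33 to 0.07 and were not called.

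MX1 and CMPK2 were downregulated by TGF-β at 6 h and were not called at 2 h. MX1, a GTPase that traps viral ribonucleoproteins, had 0.197, 0.491, 0.390 and 0.275 FPKM with TGF-β for 6 h and 0.738, 0.571, 0.684 and 0.547 FPKM with TGF-β for 2 h, against 0.820, 0.644, 0.606 and 0.808 FPKM in controls. All 4 libraries at 6 h were below the controls. On the log2 scale MX1 changed by -1.0 ± 0.23 (SE, edgeR adjusted p = 0.00415) at 6 h and -0.15 ± 0.22 (SE, edgeR adjusted p = 0.750) at 2 h. With eATP for 6 h MX1 had 0.448, 0.443, 0.566 and 0.380 FPKM, also below every control library, and -0.62 ± 0.23 (SE, edgeR adjusted p = 0.190) did not pass. CMPK2, a mitochondrial nucleotide kinase whose gene overlaps the start of RSAD2 on the opposite strand of chromosome 2, had 0.183, 0.103, 0.0986 and 0.0527 FPKM with TGF-β for 6 h, against 0.263, 0.311, 0.292 and 0.327 FPKM in controls. It was 2.53-fold lower, a log2(FC) of -1.34 ± 0.31 (SE, edgeR adjusted p = 0.00526), at 16 to 146 counts per library. With TGF-β for 2 h the log2(FC) of CMPK2 was -0.11 ± 0.30 (SE, edgeR adjusted p = 0.877).

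Of the genes grouped with ISG15 here, USP18, HERC5 and HERC6 fell with TGF-β for 6 h, and ISG15 itself was not called. USP18 removes ISG15 from proteins and also blocks signalling at the type I receptor. It had 5.85, 5.19, 5.04 and 6.27 FPKM with TGF-β for 6 h and 6.93, 8.004, 8.27 and 8.16 FPKM with TGF-β for 2 h. It had 7.74, 7.56, 7.48 and 7.09 FPKM with eATP for 6 h and 5.64, 6.81, 6.71 and 6.78 FPKM with eATP for 2 h, against 8.39, 8.51, 8.51 and 8.76 FPKM in controls. All 16 treated libraries were below all 4 controls. The decrease was called with TGF-β for 6 h, at -0.54 ± 0.08 (SE, edgeR adjusted p = 0.000132), and with eATP for 2 h, at -0.37 ± 0.08 (SE, edgeR adjusted p = 0.00710). It was not called with TGF-β for 2 h, at -0.10 ± 0.08 (SE, edgeR adjusted p = 0.528), or with eATP for 6 h, at -0.17 ± 0.08 (SE, edgeR adjusted p = 0.399).

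HERC5, the main ligase for ISG15 in human cells, and its neighbour HERC6 on chromosome 4 were both lower in all 4 TGF-β 6 h libraries than in any control. HERC5 was at 1.44 to 1.65 FPKM, against 1.87 to 2.41 FPKM in controls, a log2(FC) of -0.41 ± 0.10 (SE, edgeR adjusted p = 0.00665). HERC6 was at 1.67 to 2.01 FPKM, against 2.52 to 2.89 FPKM in controls, a log2(FC) of -0.40 ± 0.10 (SE, edgeR adjusted p = 0.00960). ISG15 had 2.34, 2.37, 3.003 and 2.94 FPKM with TGF-β for 6 h and 7.30, 3.03, 2.89 and 2.99 FPKM with TGF-β for 2 h, against 2.25, 1.45, 2.84 and 3.12 FPKM in controls. The groups overlapped at both times. The 95% interval of its log2(FC) was -0.44 to 0.86 at 6 h. At 2 h the log2(FC) was 0.78 ± 0.31 (SE, edgeR adjusted p = 0.115) with all libraries and 0.30 (edgeR adjusted p = 0.533) without replicate 1, which stood at 7.30 FPKM against 2.89 to 3.03 FPKM in the other 3 libraries of the group.

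PARP9, an ADP-ribosyltransferase family protein, and the ubiquitin ligase DTX3L act as a complex, and their genes overlap by 340 bases on opposite strands of chromosome 3, where PARP14 also lies (122527924 to 122730840 for the 3 genes). PARP9 had 2.16, 2.22, 1.85 and 2.27 FPKM with TGF-β for 6 h and 1.33, 2.78, 2.77 and 2.00 FPKM with TGF-β for 2 h, against 3.42, 3.20, 2.89 and 3.58 FPKM in controls. The TGF-β libraries lay below the controls at both times. Its log2(FC) values were -0.54 ± 0.17 (SE, edgeR adjusted p = 0.0327) at 6 h and -0.54 ± 0.17 (SE, edgeR adjusted p = 0.0391) at 2 h. Both calls were near the threshold. Without replicate 1 of TGF-β 2 h the 2 h value was -0.37 (edgeR adjusted p = 0.0776), and that call was also lost without control replicate 1, 2 or 4 or TGF-β 2 h replicate 4 (adjusted p up to 0.107 in edgeR). It was lost as well with no filter on low values, with the replicate block and in a fit of only the groups compared. The 6 h call was lost without control replicate 1, 2 or 4 or any replicate of TGF-β 6 h, with an adjusted p of up to 0.0869 in edgeR and a log2(FC) of -0.59 to -0.50.

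DTX3L had 6.68, 6.52, 5.73 and 7.31 FPKM with TGF-β for 6 h and 4.42, 6.39, 6.35 and 5.35 FPKM with TGF-β for 2 h, against 9.46, 8.68, 6.84 and 8.69 FPKM in controls. The 2 h libraries were below every control, while the 6 h libraries overlapped with control replicate 3. DTX3L had a log2(FC) of -0.56 ± 0.11 (SE, edgeR adjusted p = 0.00141) at 2 h, -0.47 (edgeR adjusted p = 0.00360) without replicate 1 of TGF-β 2 h, and -0.28 ± 0.11 (SE, edgeR adjusted p = 0.0866) at 6 h. PARP14 was not called at either time, at -0.28 ± 0.17 (SE, edgeR adjusted p = 0.328) for TGF-β 6 h and -0.33 ± 0.17 (SE, edgeR adjusted p = 0.235) for TGF-β 2 h.

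The transcription factors of the list were either higher or not called with TGF-β. IRF7, which drives the transcription of type I interferon genes, was upregulated by TGF-β at 6 h. It had 1.20, 0.730, 1.04 and 0.887 FPKM with TGF-β for 6 h and 1.42, 0.5997, 0.704 and 0.882 FPKM with TGF-β for 2 h, against 0.536, 0.429, 0.583 and 0.588 FPKM in controls. All 8 TGF-β libraries were above the controls. The log2(FC) was 0.92 ± 0.26 (SE, edgeR adjusted p = 0.0180) at 6 h and 0.78 ± 0.26 (SE, edgeR adjusted p = 0.0547) at 2 h, where it was 0.45 (edgeR adjusted p = 0.226) without replicate 1. The 6 h call was lost without control replicate 2 or TGF-β 6 h replicate 1 or 3 (adjusted p up to 0.0633 in edgeR). STAT2 and IRF9, the ISGF3 subunits on the list, were not called with either inducer. For TGF-β 6 h the 95% interval of the log2(FC) was -0.44 to 0.17 for STAT2 and -0.68 to 0.66 for IRF9. IRF9 shares its locus and strand with the annotated gene AL136295.5, so its reads are uncertain.

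A few members rose. TRIM21, an intracellular antibody receptor and ubiquitin ligase, rose with eATP at both times and with TGF-β at 6 h. It had 11.5, 11.3, 12.0 and 11.5 FPKM with TGF-β for 6 h and 8.63, 8.25, 9.74 and 9.20 FPKM with TGF-β for 2 h. It had 11.8, 11.3, 11.7 and 12.2 FPKM with eATP for 6 h and 11.6, 11.2, 11.8 and 10.7 FPKM with eATP for 2 h, against 7.42, 8.91, 8.28 and 9.85 FPKM in controls. The libraries of the 3 groups that rose were all above the controls, and the TGF-β 2 h libraries overlapped with them. TRIM21 had a log2(FC) of 0.50 ± 0.08 (SE, edgeR adjusted p = 0.000170) with TGF-β for 6 h, 0.47 ± 0.08 (SE, edgeR adjusted p = 0.00267) with eATP for 6 h and 0.41 ± 0.08 (SE, edgeR adjusted p = 0.00232) with eATP for 2 h. With TGF-β for 2 h it was 0.08 ± 0.08 (SE, edgeR adjusted p = 0.604). SP100, a nuclear body protein, had 2.26, 2.05, 2.14 and 2.32 FPKM with TGF-β for 6 h, against 1.73, 1.87, 1.72 and 1.87 FPKM in controls, a log2(FC) of 0.36 ± 0.07 (SE, edgeR adjusted p = 0.00101).

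ISG20, an exonuclease for RNA, rose with eATP for 2 h. It had 1.31, 1.15, 1.39 and 0.991 FPKM with eATP for 6 h and 1.5, 1.31, 1.33 and 1.10 FPKM with eATP for 2 h, against 0.820, 0.853, 0.830 and 0.755 FPKM in controls. Every eATP library was above every control. Its log2(FC) values were 0.70 ± 0.16 (SE, edgeR adjusted p = 0.00943) at 2 h and 0.59 ± 0.16 (SE, edgeR adjusted p = 0.0596) at 6 h, the second just short of the threshold. PLSCR1 had 16.1, 19.1, 18.9 and 16.4 FPKM with TGF-β for 2 h and 18.0, 15.7, 21.6 and 18.5 FPKM with eATP for 2 h, against 13.7, 16.1, 12.5 and 13.8 FPKM in controls. Each of the 2 h groups overlapped with control replicate 2. The log2(FC) was 0.42 ± 0.11 (SE, edgeR adjusted p = 0.0213) with eATP and 0.35 ± 0.11 (SE, edgeR adjusted p = 0.0402) with TGF-β at 2 h. The eATP call was lost without control replicate 1, 3 or 4 or eATP 2 h replicate 3 (adjusted p up to 0.0910 in edgeR). With no filter on low values, with limma at either pseudocount, with the replicate block or in a fit of only the groups compared the TGF-β call was lost. It held without replicate 1 of TGF-β 2 h, at 0.38 (edgeR adjusted p = 0.0408). It was lost without control replicate 1, 3 or 4, eATP 2 h replicate 1 or 4, or TGF-β 2 h replicate 2 or 3 (adjusted p up to 0.108 in edgeR).

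Over the 9 comparisons made, 11 members were never called: BST2, DDX60, EPSTI1, IFI27, IFI35, IFI6, IRF9, ISG15, OAS2, PARP14 and STAT2. The share of all genes never called was not determined. EPSTI1 was the scarcest member tested. It had 0.0001, 0.0442, 0.0103 and 0.0504 FPKM with TGF-β for 6 h, against 0.0595, 0.166, 0.119 and 0.0763 FPKM in controls, and its log2(FC) was -1.92 ± 0.66 (SE, edgeR adjusted p = 0.0575), with a 95% interval of -3.34 to -0.51 before adjustment over genes. The library listed at 0.0001 FPKM had a count of 0. None of the 6 libraries in which EPSTI1 reached 0.1 FPKM was a 6 h library. The highest 6 h values were 0.0504 FPKM with TGF-β and 0.0674 FPKM with eATP. EPSTI1 thus passed the filter only through groups where it was higher, and its interval at 6 h is not read as a decrease. IFI6, at 4.21 to 17.2 FPKM over all libraries, varied within groups. It had 5.83, 5.42, 8.87 and 5.75 FPKM with TGF-β for 6 h and 17.2, 7.10, 8.12 and 9.87 FPKM with TGF-β for 2 h, against 9.16, 8.17, 8.92 and 6.40 FPKM in controls. IFI35 had a 95% interval of -0.41 to 0.22 with TGF-β for 6 h.

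The comparison of 6 h with 2 h within an inducer asked how the members changed with time. With TGF-β, 8 members were lower at 6 h and 4 higher (6.58% and 5.49% of all genes tested). IFIT1 fell further than any other called member, with 0.534, 1.10, 0.437 and 0.697 FPKM at 6 h, against 2.46, 2.42, 2.65 and 2.04 FPKM at 2 h, a log2(FC) of -1.73 ± 0.23 (SE, edgeR adjusted p = 5.44e-05). CMPK2 had 0.183, 0.103, 0.0986 and 0.0527 FPKM at 6 h, against 0.205, 0.263, 0.321 and 0.294 FPKM at 2 h, a log2(FC) of -1.22 ± 0.31 (SE, edgeR adjusted p = 0.0137). MX1 had 0.197, 0.491, 0.390 and 0.275 FPKM at 6 h, against 0.738, 0.571, 0.684 and 0.547 FPKM at 2 h, a log2(FC) of -0.85 ± 0.23 (SE, edgeR adjusted p = 0.0183). The MX1 call was lost without TGF-β 6 h replicate 1 or 4 (adjusted p up to 0.0623 in edgeR). SAMHD1, which degrades nucleotides, had 2.31, 1.80, 2.28 and 2.08 FPKM at 6 h, against 1.67, 1.35, 1.37 and 1.31 FPKM at 2 h, a log2(FC) of 0.62 ± 0.20 (SE, edgeR adjusted p = 0.0488). That call was lost on leaving out any of 13 libraries (adjusted p up to 0.128 in edgeR). These were control replicate 2 and, in each of eATP 2 h, TGF-β 2 h and eATP 6 h, replicates 2, 3 and 4, and in TGF-β 6 h replicates 1, 3 and 4. Without replicate 1 of TGF-β 2 h, DDX58 was no longer called higher at 6 h, at 0.33 (edgeR adjusted p = 0.0815). IFIT3, at -0.49 ± 0.16 (SE, edgeR adjusted p = 0.0568) with all libraries, was then called lower, at -0.62 (edgeR adjusted p = 0.0108), and so was TRIM22, at -0.65 (edgeR adjusted p = 0.0460). The calls of IFIT1, CMPK2, MX1 and SAMHD1 held without that library, at -1.72 (edgeR adjusted p = 0.000115), -1.34 (edgeR adjusted p = 0.00975), -0.76 (edgeR adjusted p = 0.0395) and 0.71 (edgeR adjusted p = 0.0294). With only the TGF-β 6 h and 2 h libraries in the fit, IFIT1, SP100 and SAMHD1 kept their calls, and the other 9 members, CMPK2, MX1, OAS1, USP18, TRIM21, HERC5, IFI44, IFIT2 and DDX58, lost theirs. SAMHD1 lost its call with no filter on low values, with a filter of 1 FPKM, with limma at either pseudocount and with the replicate block, while IFIT1 and SP100 held under all 9 settings tried besides leaving out libraries.

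With eATP, 3 members were lower at 6 h than at 2 h and 3 higher (6.57% and 6.01% of all genes). TRIM22, a ubiquitin ligase of the TRIM family, had 0.214, 0.207, 0.151 and 0.224 FPKM at 6 h, against 0.360, 0.447, 0.288 and 0.412 FPKM at 2 h, a log2(FC) of -0.91 ± 0.21 (SE, edgeR adjusted p = 0.00765). IFI44 had 0.682, 0.825, 0.784 and 0.587 FPKM at 6 h, against 1.00, 1.13, 0.866 and 1.44 FPKM at 2 h, a log2(FC) of -0.63 ± 0.17 (SE, edgeR adjusted p = 0.0207). PLSCR1 had 12.5, 12.5, 12.7 and 15.6 FPKM at 6 h, against 18.0, 15.7, 21.6 and 18.5 FPKM at 2 h, a log2(FC) of -0.47 ± 0.11 (SE, edgeR adjusted p = 0.00749). SAMHD1 had 1.98, 2.93, 2.78 and 2.57 FPKM at 6 h, against 1.91, 1.27, 1.36 and 1.26 FPKM at 2 h, a log2(FC) of 0.82 ± 0.20 (SE, edgeR adjusted p = 0.00906). The 6 h and 2 h libraries did not overlap for any of these 4 genes, and they nearly met for PLSCR1 and SAMHD1. The IFI44 call was lost without eATP 2 h replicate 4 or eATP 6 h replicate 1 or 4 (adjusted p up to 0.0903 in edgeR). It was also lost in a fit of only the groups compared. TRIM22 overlaps TRIM5 on the opposite strand, and TRIM5 had a log2(FC) of -0.59 ± 0.25 (SE, edgeR adjusted p = 0.154).

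The inducers were then set against each other at the same time. At 6 h, 11 members were lower with TGF-β than with eATP and 3 higher (8.66% and 8.97% of all genes tested). IFIT2 had 0.220, 0.244, 0.287 and 0.236 FPKM with TGF-β, against 0.649, 0.774, 0.508 and 0.569 FPKM with eATP, a log2(FC) of -1.27 ± 0.18 (SE, edgeR adjusted p = 3.90e-05). OAS1 had 6.24, 6.18, 4.13 and 6.13 FPKM with TGF-β, against 13.7, 14.3, 12.4 and 13.9 FPKM with eATP, a log2(FC) of -1.20 ± 0.11 (SE, edgeR adjusted p = 1.29e-07). IFIT1 and IFIT3 differed by -1.18 ± 0.23 (SE, edgeR adjusted p = 0.000968) and -1.18 ± 0.16 (SE, edgeR adjusted p = 2.83e-05). In each of these 4 genes the TGF-β libraries were all below the eATP libraries. The higher ones were OASL at 0.91 ± 0.26 (SE, edgeR adjusted p = 0.0188), IRF7 at 0.85 ± 0.26 (SE, edgeR adjusted p = 0.0261) and PLSCR1 at 0.36 ± 0.11 (SE, edgeR adjusted p = 0.0302). The PLSCR1 call was lost without control replicate 1, eATP 6 h replicate 1, 2 or 3, or TGF-β 6 h replicate 1 or 2. The IRF7 call was lost without eATP 6 h replicate 2 or 4 or TGF-β 6 h replicate 1 or 3, and the OASL call without eATP 6 h replicate 2 (adjusted p up to 0.101, 0.0878 and 0.0643 in edgeR). ISG20, called lower at -0.49 ± 0.16 (SE, edgeR adjusted p = 0.0485), lost its call without any library other than control replicate 1, eATP 2 h replicate 4, TGF-β 2 h replicate 1 or 2, eATP 6 h replicate 4, or TGF-β 6 h replicate 2 or 3 (adjusted p up to 0.139 in edgeR). With no filter on low values PLSCR1, IRF7 and ISG20 lost their calls, and in a fit of only the groups compared PLSCR1 and ISG20 did. PLSCR1 also lost its call with limma at either pseudocount and with the replicate block.

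At 2 h, 8 members were lower with TGF-β than with eATP and 2 higher (4.16% and 4.93% of all genes tested). IFIT2 differed by -1.20 ± 0.18 (SE, edgeR adjusted p = 0.000112), IFIT3 by -0.95 ± 0.16 (SE, edgeR adjusted p = 0.000505) and OAS1 by -0.63 ± 0.11 (SE, edgeR adjusted p = 0.000468). Without replicate 1 of TGF-β 2 h these values were -1.10 (edgeR adjusted p = 0.000474), -0.84 (edgeR adjusted p = 0.00149) and -0.62 (edgeR adjusted p = 0.00117). OASL had 0.895, 0.632, 0.631 and 0.723 FPKM with TGF-β, against 0.454, 0.330, 0.346 and 0.363 FPKM with eATP, a log2(FC) of 0.95 ± 0.26 (SE, edgeR adjusted p = 0.0225). Its TGF-β libraries were all above the eATP libraries, and without replicate 1 of TGF-β 2 h the value was 0.81 (edgeR adjusted p = 0.0722). The OASL call was also lost without eATP 2 h replicate 2, 3 or 4 (adjusted p at most 0.0722 in edgeR). USP18, called higher at 0.28 ± 0.08 (SE, edgeR adjusted p = 0.0487) and at 0.31 (edgeR adjusted p = 0.0190) without replicate 1 of TGF-β 2 h, lost its call without any library other than TGF-β 2 h replicate 1, eATP 6 h replicate 3, or TGF-β 6 h replicate 3 or 4 (adjusted p up to 0.169 in edgeR). It also lost it with no filter on low values, DESeq2 size factors, robust estimation, the replicate block and a fit of only the groups compared.

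The change between 2 and 6 h differed between the inducers for 3 members, all lower with TGF-β (3.02% of all genes tested were lower in this comparison, and 3.1% higher). It was tested as the interaction of inducer and time. For IFIT1 the change was -1.73 with TGF-β, against -0.54 with eATP, a difference of -1.19 ± 0.32 (SE, edgeR adjusted p = 0.0316). For USP18 it was -0.44 with TGF-β, against 0.20 with eATP, a difference of -0.64 ± 0.12 (SE, edgeR adjusted p = 0.00213). For OAS1 it was -0.46 with TGF-β, against 0.11 with eATP, a difference of -0.58 ± 0.15 (SE, edgeR adjusted p = 0.0254). The differences without replicate 1 of TGF-β 2 h were -1.18 (edgeR adjusted p = 0.0353) for IFIT1, -0.70 (edgeR adjusted p = 0.000485) for USP18 and -0.60 (edgeR adjusted p = 0.0183) for OAS1. USP18 kept its call without each library in turn. In a fit of only these 4 groups, and also with the replicate number as a block, IFIT1 lost its call. OAS1 lost it without eATP 2 h replicate 2 or 3, TGF-β 2 h replicate 3 or eATP 6 h replicate 2. IFIT1 lost it without those 3 libraries at 2 h, eATP 6 h replicate 1 or 3, or TGF-β 6 h replicate 1 or 4 (adjusted p up to 0.0610 for OAS1 and 0.0704 for IFIT1 in edgeR).

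The rest of the pathway was read from 7 further lists. No list was tested as a whole, and the lists are short, so their counts are not read as results about a list. Of 9 interferon ligand genes, IFNA2, IFNG, IFNL1, IFNL2 and IFNL3 had counts of 0 in all 20 libraries, IFNB1 had at most 4 counts and IFNK was counted in 1 library. IFNE, an interferon with constitutive epithelial expression, was measured and rose with TGF-β for 6 h, at 2.03 ± 0.390 FPKM with TGF-β, against 0.955 ± 0.161 FPKM in controls (SD, n = 4 each). Its log2(FC) was 1.16 ± 0.31 (SE, edgeR adjusted p = 0.0121). IFNA1 was at 0.226 FPKM over all libraries. Of the 6 receptor genes, 1 fell with TGF-β for 6 h (7.76% of all genes tested) and 3 rose with eATP for 2 h (4.79% of all genes). IFNGR1, which binds interferon-γ, had 17.6 ± 5.07 FPKM with TGF-β for 6 h, against 34.8 ± 1.38 FPKM in controls (SD, n = 4 each), a log2(FC) of -0.91 ± 0.15 (SE, edgeR adjusted p = 0.000213). With eATP for 2 h the log2(FC) was 0.70 ± 0.10 (SE, edgeR adjusted p = 8.20e-05) for IFNGR2, 0.55 ± 0.17 (SE, edgeR adjusted p = 0.0447) for IFNLR1 and 0.45 ± 0.11 (SE, edgeR adjusted p = 0.0124) for IFNAR2.

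Of 10 genes of JAK-STAT signalling and its feedback, 3 fell with TGF-β for 6 h (7.76% of all genes tested). With TGF-β for 2 h, 2 fell and 1 rose (5.67% and 7.25% of all genes). With eATP, 1 rose at 6 h (1.71% of all genes), and 1 fell and 2 rose at 2 h (3.79% and 4.79% of all genes). JAK2, STAT3 and PTPN6 fell with TGF-β for 6 h by 0.53, 0.30 and 0.31 on the log2 scale. SOCS3, a feedback inhibitor, rose with eATP, at 0.77 ± 0.08 (SE, edgeR adjusted p = 1.74e-05) for 6 h and 0.48 ± 0.08 (SE, edgeR adjusted p = 0.000649) for 2 h. CISH, another feedback inhibitor at low level, fell with eATP for 2 h, at 0.0529 ± 0.0105 FPKM with eATP, against 0.185 ± 0.0244 FPKM in controls (SD, n = 4 each), a log2(FC) of -1.76 ± 0.36 (SE, edgeR adjusted p = 0.00324). With TGF-β for 2 h it was -1.21 ± 0.35 (SE, edgeR adjusted p = 0.0282), and the call was lost without replicate 1 of TGF-β 2 h, at -1.09 (edgeR adjusted p = 0.0741). PTPN6, the gene that rose with TGF-β for 2 h, also lost its call without that library, at 0.20 (edgeR adjusted p = 0.102). Of the 5 measured interferon regulatory factors outside the list, IRF2, a repressor at ISRE sites, fell at 2 h, at -1.02 ± 0.15 (SE, edgeR adjusted p = 7.87e-05) with TGF-β and -0.81 ± 0.15 (SE, edgeR adjusted p = 0.00112) with eATP. The TGF-β value was -0.88 (edgeR adjusted p = 6.31e-05) without replicate 1 of TGF-β 2 h. IRF5 rose with TGF-β for 6 h, at 0.49 ± 0.14 (SE, edgeR adjusted p = 0.0248), and IRF1 with eATP for 2 h, at 0.42 ± 0.11 (SE, edgeR adjusted p = 0.0201).

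Of 11 measured genes that interferon-γ typically induces, 2 fell and 1 rose with TGF-β for 6 h (7.76% and 8.4% of all genes tested). At 2 h of TGF-β, 3 fell and 1 rose (5.67% and 7.25% of all genes). The chemokine CXCL10 had 0.136 ± 0.0447 FPKM with TGF-β for 6 h and 0.543 ± 0.178 FPKM with TGF-β for 2 h, against 0.844 ± 0.235 FPKM in controls (SD, n = 4 each). Its log2(FC) at 6 h was -2.48 ± 0.31 (SE, edgeR adjusted p = 8.72e-06). The guanylate-binding protein gene GBP2 had a log2(FC) of -0.75 ± 0.13 (SE, edgeR adjusted p = 0.000292) at 6 h, and GBP3 and GBP1 had -0.67 ± 0.12 (SE, edgeR adjusted p = 0.000693) and -0.65 ± 0.11 (SE, edgeR adjusted p = 0.000502) at 2 h. The 2 h values without replicate 1 of TGF-β 2 h were -0.60 (edgeR adjusted p = 0.00219) for GBP3 and -0.60 (edgeR adjusted p = 0.00131) for GBP1. ICAM1, an adhesion molecule that NF-κB also induces, rose in all 4 treated groups. It had 11.8 ± 0.894 FPKM with TGF-β for 6 h, 12.6 ± 2.89 FPKM with TGF-β for 2 h, 10.9 ± 0.641 FPKM with eATP for 6 h and 23.9 ± 0.883 FPKM with eATP for 2 h, against 7.17 ± 0.688 FPKM in controls (SD, n = 4 each). Its log2(FC) was 1.76 ± 0.13 (SE, edgeR adjusted p = 2.95e-08) with eATP for 2 h and 0.83 ± 0.12 (SE, edgeR adjusted p = 0.000129) with TGF-β for 2 h, where it was 0.85 (edgeR adjusted p = 0.000205) without replicate 1. GBP1 fell with eATP for 6 h, at -0.87 ± 0.11 (SE, edgeR adjusted p = 0.000130). Of 9 measured sensing and adaptor genes, IKBKE and IFI16 fell and TICAM1 rose with TGF-β for 6 h (7.76% and 8.4% of all genes tested). Their values were -0.56 ± 0.12 (SE, edgeR adjusted p = 0.00291), -0.36 ± 0.12 (SE, edgeR adjusted p = 0.0481) and 0.46 ± 0.11 (SE, edgeR adjusted p = 0.00501). With eATP, 1 gene of this list rose at 6 h and 1 at 2 h (1.71% and 4.79% of all genes). TICAM1 had 2.74 ± 0.0621 FPKM with TGF-β for 6 h and 3.25 ± 0.0999 FPKM with eATP for 2 h, against 2.09 ± 0.218 FPKM in controls (SD, n = 4 each).

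**Figure D5:**
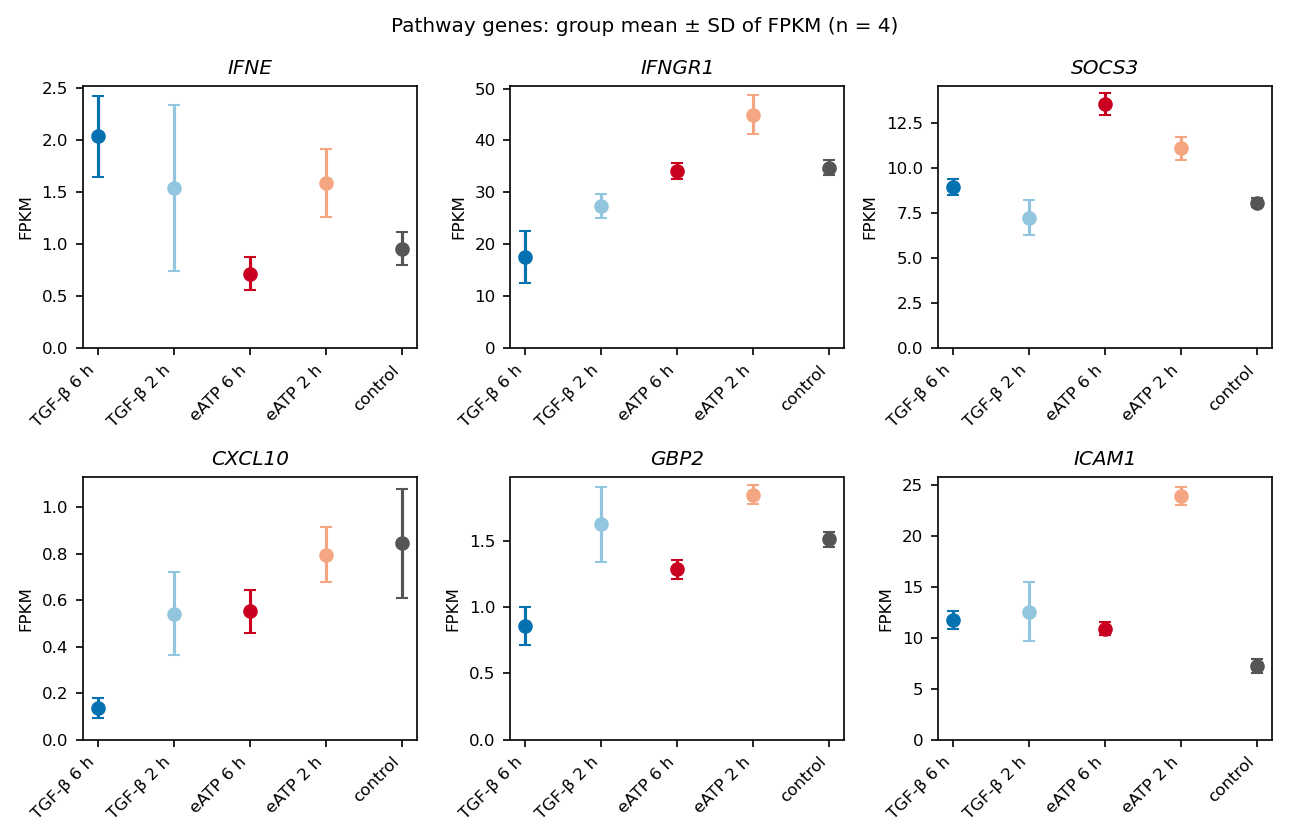
Points are the group mean of FPKM and bars the SD over 4 libraries, for 6 genes of the pathway lists, with axes that start at 0. CXCL10, GBP2 and IFNGR1 are lowest with TGF-β for 6 h, SOCS3 is highest with eATP for 6 h, IFNE is highest with TGF-β for 6 h, and ICAM1 is highest with eATP for 2 h.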

How the data were processed

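RNA of A549 cells was sequenced from stranded libraries. Per the labels the authors used HISAT2, StringTie and edgeR, with versions and genome build not given in the sources. The deposited table held read counts per gene and FPKM values for 20 libraries, both made by the authors. Gene IDs were matched to GENCODE 29 (58552 of 58825).

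Counts were fitted with edgeR 4.0.16 in R 4.3.3 (TMM scaling, quasi-likelihood F test, 5 group means, 15 residual degrees of freedom, Benjamini-Hochberg adjustment over 20094 genes, threshold 0.05). The SE is not an output of edgeR. It was derived as the absolute log2(FC) divided by the square root of the F statistic. The 95% intervals are the log2(FC) with this SE and a t distribution of 15 degrees of freedom, and are approximate. Every count of 0 is listed at 0.0001 FPKM, as are 42 counts above 0. Alternatives were DESeq2 1.42.0, limma 3.58.1 on log2(FPKM + 0.1) or log2(FPKM + 1), other filters and scaling, robust estimation, the replicate block, fits of only the groups compared, and leaving out each library. Steps were tested on simulated data.

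The members and lists were chosen with earlier results of these data known. Values per library are given for up to 8 members called per control comparison, up to 4 per other comparison and the 3 most abundant. Up to 4 called genes were named per pathway list. A gene of the JAK-STAT list is not reported here.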

Additional observations from a re-analysis of the deposited data

Results flagged for a closer look

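In 18 of the 175 sets of 4 libraries tested (35 members in 5 groups), a library lay far from the other 3 of its group by Dixon's test, where chance flags about 1 in 20, or 8.75 sets. Libraries above their group were, in FPKM, PLSCR1 15.59 in eATP 6 h replicate 4 (other libraries 12.5 to 12.74), IFI6 8.875 in TGF-β 6 h replicate 3 (other libraries 5.423 to 5.833), IFI35 10.12 in TGF-β 2 h replicate 1 (other libraries 6.396 to 7.006) and IFIT5 6.653 in eATP 2 h replicate 1 (other libraries 5.925 to 5.975). Also above their group were ISG15 7.295 in TGF-β 2 h replicate 1 (other libraries 2.89 to 3.033), ISG15 4.251 in eATP 6 h replicate 3 (other libraries 2.37 to 2.609), HERC6 2.387 in eATP 6 h replicate 3 (other libraries 2.151 to 2.191), SAMHD1 1.913 in eATP 2 h replicate 1 (other libraries 1.258 to 1.365) and SAMHD1 1.672 in TGF-β 2 h replicate 1 (other libraries 1.308 to 1.369). Libraries below their group were, in FPKM, OAS3 12.37 in eATP 2 h replicate 4 (other libraries 12.92 to 13.02), OAS1 4.134 in TGF-β 6 h replicate 3 (other libraries 6.133 to 6.241), USP18 5.643 in eATP 2 h replicate 1 (other libraries 6.707 to 6.81), PARP14 4.494 in eATP 2 h replicate 4 (other libraries 5.11 to 5.156) and PARP14 4.39 in eATP 6 h replicate 3 (other libraries 5.384 to 5.541). Also below their group were STAT2 1.488 in control replicate 3 (other libraries 2.306 to 2.386), IRF9 0.7484 in eATP 2 h replicate 1 (other libraries 1.526 to 1.665), OASL 0.3374 in TGF-β 6 h replicate 3 (other libraries 0.4847 to 0.4989) and EPSTI1 0.05189 in eATP 2 h replicate 3 (other libraries 0.101 to 0.1017). By library, 4 of these were in eATP 2 h replicate 1, 3 each in TGF-β 2 h replicate 1, TGF-β 6 h replicate 3 and eATP 6 h replicate 3, 2 in eATP 2 h replicate 4, and 1 each in 3 others. Sets share libraries, so that they are not independent.

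For 3 members the change from 2 to 6 h differed between TGF-β and eATP by the interaction test of edgeR, at -1.189 for IFIT1, -0.6393 for USP18 and -0.5764 for OAS1 on the log2 scale. In each the change with TGF-β was the lower. The TGF-β 6 h value of OAS1 includes replicate 3, which is listed above.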

How the results depend on the processing

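Over the 9 comparisons, 41 of the 76 calls of members held without each of the 20 libraries in turn and under each of the 9 other settings. Among them were 14 of 16 for TGF-β 6 h and 4 of 9 for TGF-β 2 h against controls. None of the 76 calls changed direction, and values that were not called were not checked for this. For TGF-β 2 h against control, where 9 members were called, the DESeq2 test called 14 and a fit of only the groups compared called 4. For eATP 6 h against control, with 2 called, there was 1 with no filter on low values, 5 with a filter of 1 FPKM, 6 with the DESeq2 test, 4 with limma on log2(FPKM + 1), 1 with the replicate block, and 1 to 5 on leaving out a library. A fit of only the groups compared called 3 of 12 for TGF-β 6 h against TGF-β 2 h and 5 of 10 for TGF-β 2 h against eATP 2 h. On leaving out a library these counts were 7 to 13 and 6 to 10, and for eATP 6 h against eATP 2 h (6 called) 3 to 8. For the interaction of inducer and time (3 called) the DESeq2 test called 5, and leaving out a library gave 1 to 4. The median level of the members with eATP for 6 h was -0.10 log2 units over all 35 and 0.016 over those at or above 1 FPKM. Of these differences the cause was not tested. It is not stated if replicate numbers mark pairs. Same-numbered libraries of different groups had correlations of their deviations of -0.164 to 0.146 (median 0.012) over genes, against -0.247 to 0.280 (median -0.0005) for other numbers. In 24 of 80 cases a library correlated best with its own number. With 4 libraries per group these values cannot decide if there was a pairing. With the replicate block, 16 members were called for TGF-β 6 h, 8 for TGF-β 2 h, 1 for eATP 6 h and 4 for eATP 2 h against control. Members under 1 FPKM, such as CMPK2 and EPSTI1, rest on few counts, and their intervals are wide.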

Other observations

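Of 16 further interferon-stimulated genes, 3 were downregulated by TGF-β at 6 h (7.76% of all genes tested). The list is short and was not tested, so this count is not read as a result about it. TRIM25, the ubiquitin ligase that acts with RIG-I, had 8.31 ± 1.06 FPKM with TGF-β for 6 h and 15.3 ± 0.695 FPKM with eATP for 2 h, against 11.9 ± 0.538 FPKM in controls (SD, n = 4 each). Its log2(FC) was -0.44 ± 0.11 (SE, edgeR adjusted p = 0.00795) with TGF-β for 6 h and 0.39 ± 0.11 (SE, edgeR adjusted p = 0.0276) with eATP for 2 h. EIF2AK2 (PKR), the kinase activated by double-stranded RNA, and PNPT1, a mitochondrial RNA exonuclease, changed by -0.44 ± 0.13 (SE, edgeR adjusted p = 0.0281) and -0.36 ± 0.09 (SE, edgeR adjusted p = 0.0109) with TGF-β for 6 h. The antiviral membrane proteins IFITM1, IFITM2 and IFITM3 were not called against controls at 6 h of TGF-β, but were lower at 6 h than at 2 h of TGF-β, at -1.20 ± 0.28 (SE, edgeR adjusted p = 0.00710), -0.60 ± 0.16 (SE, edgeR adjusted p = 0.0198) and -0.67 ± 0.16 (SE, edgeR adjusted p = 0.00744). These last values without replicate 1 of TGF-β 2 h, which stood apart from its group, were -1.05 (edgeR adjusted p = 0.0175), -0.34 (edgeR adjusted p = 0.0178) and -0.46 (edgeR adjusted p = 0.00942).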
